A study of Bos taurus with 28 samples.

Results

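The 15 calves on a moderate plane of nutrition (MOD) differed widely from each other in the anterior pituitary expression of EGR1 (ENSBTAG00000010069), and these calves were divided by that expression alone. The 7 MOD calves with the highest EGR1 values formed an EGR1-high group, the 7 with the lowest formed an EGR1-low group, and the calf in the middle of the order was left out of the tests. The 14 calves compared were therefore part of 28 in the whole series, and no calf of the 13 on the high plane (HI) was used. All other genes were then compared between the groups, to ask which of them went with EGR1 among heifers on 1 diet. Because the groups were chosen by a measured gene, a difference between them is an association with EGR1 and not the effect of a treatment.

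All calves were Angus × Holstein-Friesian heifers whose anterior pituitary was taken at 21 weeks of age for messenger RNA sequencing. The sample labels give a calf phase of 8 weeks. In it the MOD diet consisted of 0.5 kg of milk replacer (made up to 4 litres) and 1 kg of concentrates daily. A post-weaning phase of 11 weeks followed, with 1 kg of concentrates plus hay to appetite, for an intended gain of 0.5 kg/day. The study's text differs for the calf phase, with concentrates raised in steps to at most 1 kg and milk replacer withdrawn gradually. Every calf in both EGR1 groups received the MOD diet. Each library came from a single calf. Diets follow the sample labels, although the study's text divides the calves between the diets by 1 calf differently, and a calf with another diet label would change the order and the groups. The study allocated calves within blocks of age, bodyweight, farm and genetic merit, but the labels give neither the block of a calf nor a sequencing batch, so these could not be included. Gene symbols are given only where the study's own list of genes affected by diet pairs them with identifiers. That list holds 195 genes, 159 with a symbol, and all 158 symbols other than EGR1 were tested.

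EGR1 is a zinc finger transcription factor of the immediate early class. Such genes need no new protein for their induction, and their transcripts appear within minutes of a stimulus and are lost again quickly. In gonadotrophs, the pituitary cells that make luteinising and follicle-stimulating hormone, gonadotropin-releasing hormone (GnRH) induces EGR1 through protein kinase C and MAP kinase, and EGR1 then acts on the promoter of the luteinising hormone beta subunit. AP-1 factors of the FOS and JUN families are induced by the same signals and act on the promoter of the follicle-stimulating hormone beta subunit, FSHB. Immediate early genes also respond to stress and to the handling of tissue.

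The values are CPM, read counts scaled to a common library size, on TMM-adjusted library sizes. EGR1 was at 37.3, 60.8, 87.7, 154, 169, 199 and 205 CPM in the EGR1-low calves, numbered 991, 1689, 1392, 3622, 911, 975 and 1082 in that order. Calf 1690 in the middle had 268 CPM. The EGR1-high calves 1395, 1057, 2532, 981, 2346, 2551 and 2537 had 271, 315, 317, 349, 483, 532 and 685 CPM. The order is that of a gradient without a clear break, and the lowest EGR1-high calf was only 3.03 CPM above the middle calf while the highest EGR1-low calf was 63.2 CPM below it. The mean was 422 ± 150 CPM (SD, n = 7) in EGR1-high and 131 ± 68.0 CPM (SD, n = 7) in EGR1-low calves, a ratio of 3.23, and the highest calf had 18.3 times the level of the lowest. These values chose the groups and received no test. Between 702 and 10385 reads lay behind each EGR1 value, so counting error was small beside the spread between calves.

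**Figure D1:**
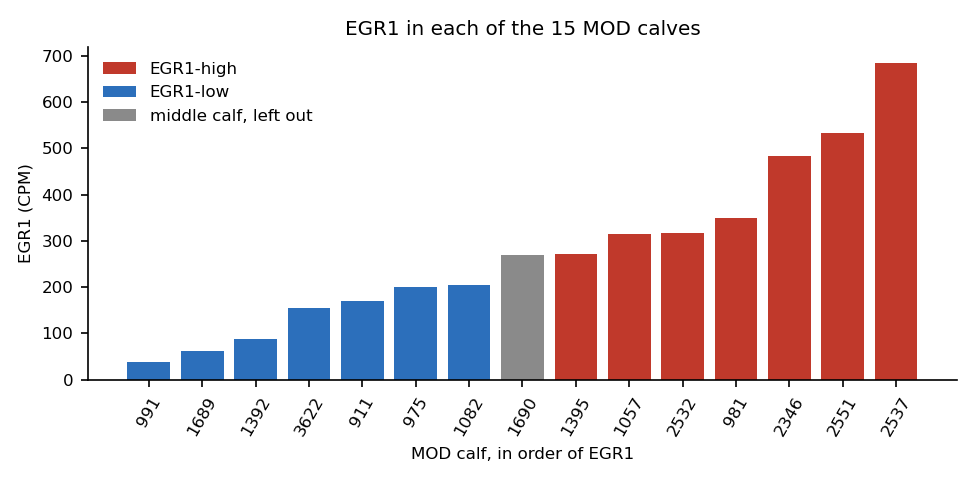
EGR1 expression (CPM, linear axis from 0) in each of the 15 MOD calves, ordered by level, with bars coloured by the group the calf was placed in. The values climb from 37.3 to 685 CPM, and the middle calf (268 CPM) lies next to the lowest EGR1-high calf (271 CPM).

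Depth differed little between the groups. The 15 libraries held 12669266 to 18196391 reads counted on genes (median 15923476), and 1 read was worth 0.0532 to 0.0830 CPM. EGR1-high and EGR1-low calves had means of 16007800 and 15549600 reads (exact permutation test, 2-sided, p = 0.596, adjusted over 3 measures p = 0.816) and of 18289 and 18315 genes with at least 1 read (exact permutation p = 0.816, adjusted p = 0.816). The gene for prolactin (PRL) and the growth hormone family gene listed as CSHL1 together took 23.2% ± 4.91 (SD, n = 7) of reads in EGR1-high and 20.1% ± 2.01 (SD, n = 7) in EGR1-low calves (exact permutation p = 0.102, adjusted p = 0.306). The difference of 3.17 percentage points became 3.76 with calf 3622 left out (exact permutation p = 0.0315) and 1.40 with calf 2551 left out (exact permutation p = 0.204). EGR1-high calf 2551 stood apart, with 33.9% of its reads on these genes against 18.1% to 23.6% in the other 13 calves of the groups and a TMM factor of 0.805. EGR1-low calves 3622 and 911 stood apart in induced genes, as described below, and where leaving both out moved a difference named here by over 1.5 times, both values are given. In whole tissue, fewer cells of a type and less RNA per cell cannot be told apart.

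No gene was called between the groups. Among 15025 genes tested with limma on log2(CPM + 0.5), 0 had a Benjamini-Hochberg adjusted p-value below 0.05 together with a fold change above 1.5 (0%), and 0 did so without the fold threshold. At an unadjusted p-value below 0.05 there were 1021 genes (6.80%), of which 470 (3.13%) were higher and 551 (3.67%) were lower in EGR1-high calves. The quasi-likelihood F-test of edgeR on the recovered reads also called 0 genes, with 1052 at an unadjusted p-value below 0.05, while DESeq2 called 9, all higher in EGR1-high calves, with 1147 at that level. The median log2 difference over all genes was -0.0015, and the standard error of a difference was 0.12 for the median gene. All 7 calves of 1 group lay above all 7 of the other for 13 genes (0.0865% of those tested). For 9 of these (0.0599%) the EGR1-high calves were above, and JUNB was the only 1 of the 13 with a symbol.

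**Figure D2:**
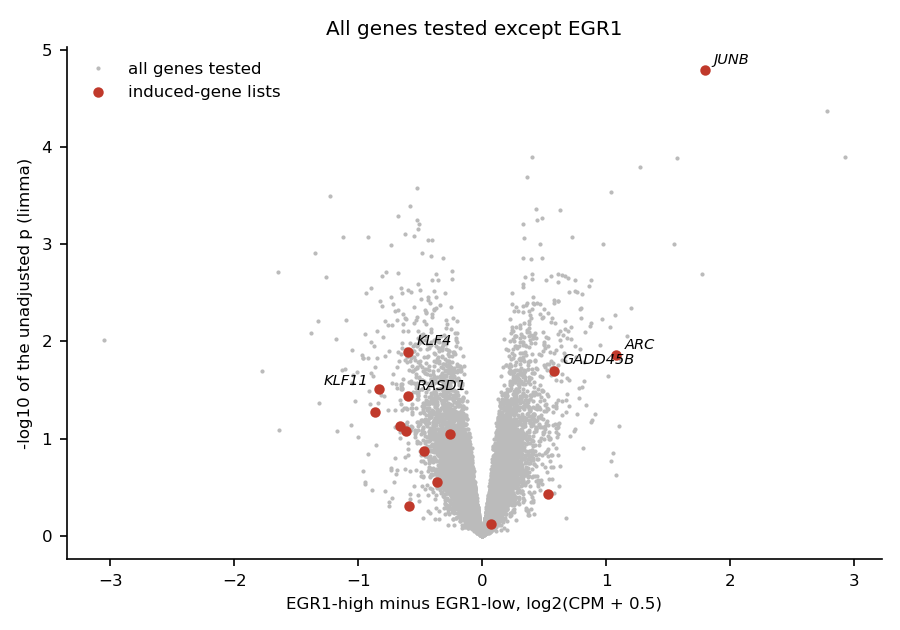
The 15025 genes tested, with the EGR1-high minus EGR1-low difference on log2(CPM + 0.5) across and -log10 of the unadjusted limma p-value upwards; red points are the 15 induced genes described in the text. JUNB is the uppermost point (difference 1.80), 10 of the red points lie left of 0, and no gene passed the threshold after adjustment.

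JUNB (ENSBTAG00000012046), which encodes an AP-1 subunit, had the smallest p-value of all genes tested. In the order of EGR1, the EGR1-low calves were at 15.4, 28.9, 25.6, 21.0, 24.7, 32.6 and 32.7 CPM. The middle calf, which entered neither group, was at 58.7 CPM. The EGR1-high calves were at 84.9, 68.6, 61.8, 39.0, 107, 169 and 169 CPM. The groups did not overlap, the middle calf lay within the EGR1-high range, and the lowest EGR1-high value was that of calf 981. Means were 99.9 ± 51.6 CPM (SD, n = 7) and 25.8 ± 6.27 CPM (SD, n = 7), a log2 difference of 1.80 (standard error 0.29, 95% interval 1.18 to 2.42). The limma p-value was 1.62e-05 before and 0.244 after adjustment over all genes, so JUNB was not called. It was called by DESeq2 (log2 difference 1.95, adjusted p = 5.11e-06), with reads per library as a covariate in limma (1.90, adjusted p = 0.0150) and with EGR1 as a continuous variable over all 15 MOD calves in limma (1.46 per mean distance between the groups, adjusted p = 0.0243). It was also called in limma without calf 981 (2.00, adjusted p = 0.0102), and in no other fit that left out a calf. Without calves 3622 and 911 the difference was 1.74 (standard error 0.34), and JUNB was again not called (limma p = 1.56e-04 before and 0.9999 after adjustment).

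The immediate early transcription factors were divided in direction. Of the 7 members, JUNB and ATF3 were above 0 and 5 were below, with a median log2 difference of -0.59. At an unadjusted p-value below 0.05, 1 was higher and 2 were lower (42.9% of the list, against 6.80% of all genes tested), and after adjustment 0 passed. Every gene in this list and those below was chosen by the study for a difference between diets in these and the HI calves, and the lists were drawn up with earlier results known, so the counts are descriptions and not independent evidence.

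FOSB (ENSBTAG00000008182), which encodes the AP-1 partner of JUN proteins, ran from 1.24 to 50.4 CPM (median 10.6) in EGR1-low and from 1.80 to 26.2 CPM (median 4.26) in EGR1-high calves. The groups overlapped throughout, and the highest values of all were those of EGR1-low calves 3622 (50.4 CPM) and 911 (45.2 CPM). On the log2 scale the groups differed by -0.59 with a wide interval (standard error 0.83, 95% interval -2.37 to 1.19, limma adjusted p = 0.917). The sign turned without those calves (0.37, standard error 0.67) and also with all 15 MOD calves when EGR1 was taken as a continuous variable (0.20).

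ATF3 (ENSBTAG00000008545), a stress-induced factor of the ATF/CREB family, ran from 1.07 to 12.3 CPM (median 2.25) in EGR1-low and from 2.10 to 36.1 CPM (median 3.29) in EGR1-high calves. The 36.1 CPM belonged to calf 2551, and the next EGR1-high calf had 4.61 CPM. This gave a log2 difference of 0.53 (standard error 0.57, limma adjusted p = 0.885). The difference was 0.06 without calf 2551 and 1.13 without calves 3622 and 911.

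The 4 remaining members of the list were lower in EGR1-high calves in value, and none passed the test. MAFF, a small MAF protein that partners other basic leucine zipper factors, had medians of 4.80 CPM in EGR1-high and 8.92 CPM in EGR1-low calves (log2 difference -0.87, standard error 0.42, limma adjusted p = 0.742). The Krüppel-like zinc finger factors KLF11 and KLF4 differed by -0.83 (standard error 0.35, limma adjusted p = 0.684) and by -0.59 (standard error 0.21, limma adjusted p = 0.610). KLF11 ran from 8.21 to 37.3 CPM in EGR1-high and from 17.7 to 43.1 CPM in EGR1-low calves. Calves 1395, 1057, 2346 and 2551, all EGR1-high, held its 4 lowest values (8.21 to 11.0 CPM), while the other 3 EGR1-high calves lay at 29.8 to 37.3 CPM, inside the EGR1-low range. CEBPD, a CCAAT/enhancer binding factor that responds to glucocorticoids and cytokines, differed by -0.26 (standard error 0.14, limma adjusted p = 0.779), with medians of 142 and 165 CPM. Calves 3622 and 911 held the 2 highest values of MAFF, KLF4 and CEBPD, and without them the differences were -0.39, -0.34 and -0.13. KLF11 was at -0.77 without them.

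**Figure D3:**
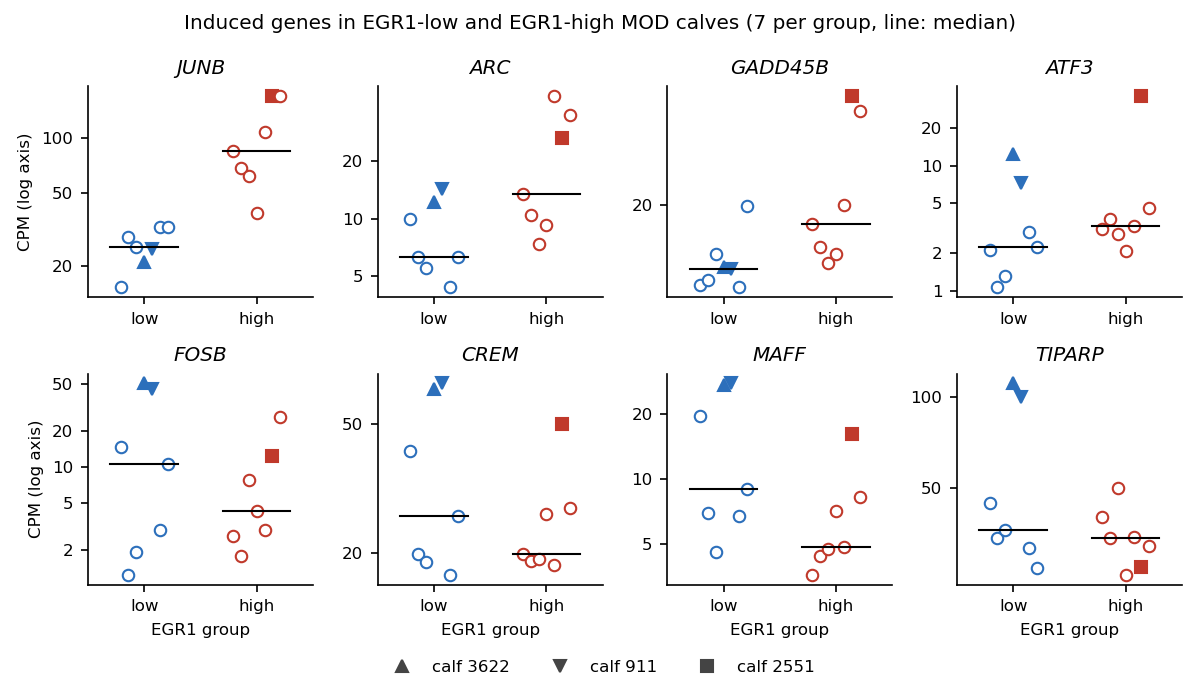
Expression (CPM, log axis) of 8 induced genes in the 7 EGR1-low and 7 EGR1-high MOD calves, 1 point per calf with the group median as a line; filled symbols mark calves 3622, 911 and 2551. JUNB separates the groups, whereas FOSB, CREM, MAFF and TIPARP have their highest values in EGR1-low calves 3622 and 911 and ATF3 and GADD45B in EGR1-high calf 2551.

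Genes that act downstream of such signals were also divided. Of the 8 effectors and feedback regulators, 3 were above 0 and 5 below, with a median log2 difference of -0.42. At an unadjusted p-value below 0.05, 2 were higher (ARC and GADD45B) and 1 was lower (RASD1), which is 37.5% of the list against 6.80% of all genes tested, and after adjustment 0 passed.

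ARC (ENSBTAG00000021639), a cytoskeleton-associated protein whose transcription follows synaptic activity in neurons, ran from 4.36 to 14.2 CPM (median 6.32) in EGR1-low and from 7.40 to 43.9 CPM (median 13.4) in EGR1-high calves. All 7 EGR1-high calves were above the EGR1-low median, but 4 of them (7.40 to 13.4 CPM) lay within the EGR1-low range. The 3 calves with the most EGR1 were also the 3 with the most ARC, at 43.9, 26.5 and 34.9 CPM in calves 2346, 2551 and 2537. ARC differed by 1.08 (standard error 0.39, 95% interval 0.25 to 1.91, limma adjusted p = 0.617) and 1.37 without calves 3622 and 911.

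GADD45B (ENSBTAG00000025462), a stress-induced regulator of cell cycle and MAP kinase signalling, ran from 11.8 to 19.9 CPM (median 13.3) in EGR1-low and from 13.8 to 40.7 CPM (median 17.7) in EGR1-high calves. The values of calves 2551 and 2537 (40.7 and 36.8 CPM) stood well above the rest. GADD45B differed by 0.58 (standard error 0.23, 95% interval 0.10 to 1.06, limma adjusted p = 0.629).

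RASD1 (ENSBTAG00000020520), a Ras-like protein induced by glucocorticoids, ran from 92.5 to 319 CPM (median 188) in EGR1-low and from 69.0 to 176 CPM (median 110) in EGR1-high calves. All 7 EGR1-high calves were below the EGR1-low median, and RASD1 differed by -0.60 (standard error 0.26, limma adjusted p = 0.707) and -0.36 without calves 3622 and 911.

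The 5 other members gave smaller or less certain differences. RGS1, which ends signalling by G proteins, differed by -0.66 (standard error 0.35, limma adjusted p = 0.764) and by -0.44 without calf 1057. RRAD, a Ras-related inhibitor of calcium channels, differed by -0.61 (standard error 0.33), and TIPARP, an ADP-ribosyltransferase induced by the aryl hydrocarbon receptor, by -0.47 (standard error 0.29). CREM, whose locus also makes a feedback repressor of cyclic AMP signalling, differed by -0.37 (standard error 0.33), and Sik1, a kinase that restrains CREB coactivators, by 0.07 (standard error 0.21, 95% interval -0.38 to 0.51), a value that was at or below 0 without calf 2551 (-0.090), 1392 (-0.020) or 1689 (-0.0013). Without calves 3622 and 911, RRAD was at -0.21, TIPARP at -0.01, CREM at 0.05 and Sik1 at 0.26.

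Across both lists, the same pair of EGR1-low calves recurred. Calves 3622 and 911 held the 2 highest values of all 15 MOD calves for 8 of the 15 genes, namely FOSB, MAFF, KLF4, CEBPD, CREM, RASD1, RRAD and TIPARP. For TIPARP they were at 111 and 99.8 CPM while the other 13 MOD calves lay at 25.8 to 50.1 CPM. For CREM they were at 63.8 and 66.7 CPM and the next calf, 2551, at 50.0 CPM. In EGR1 these calves were unremarkable, at 154 and 169 CPM, and in JUNB they lay at 21.0 and 24.7 CPM, within the EGR1-low range. The calves highest in EGR1 and JUNB were thus not those highest in FOSB, MAFF and CREM. With both calves left out, a comparison chosen after seeing the data, the transcription factors had 3 of 7 members above 0 and a median of -0.13, the effectors had 4 of 8 and a median of 0.02, and limma again called 0 genes. Each list then had 2 higher and 0 lower members at an unadjusted p-value below 0.05 (28.6% and 25% of the lists, against 3.99% of all genes tested). Over all genes, 302 were higher and 297 lower at that level. Both calves were EGR1-low and were picked for high values in these same lists. Leaving them out therefore had to raise the differences of the 8 genes, and this shift is no independent evidence.

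EGR1 taken as a continuous variable over all 15 MOD calves, scaled to the mean distance between the groups, gave smaller differences for the induced genes that were lower in value. Of the 10 induced genes below 0 in the group comparison, 9 came more than 1.5 times nearer to 0 and FOSB turned sign, and their median moved from -0.60 to -0.18. RGS1 moved from -0.66 to -0.13, RASD1 from -0.60 to -0.15 and KLF11 from -0.83 to -0.35. Of the 5 induced genes above 0, JUNB (1.46), ARC (0.91) and GADD45B (0.57) stayed within 1.5 times of their group difference, and ATF3 (0.83) and Sik1 (0.24) were larger. JUNB was the only induced gene called in this fit. Outside these lists, DRD2, GHRHR, ZNF215 and OMG, all above 0, also came more than 1.5 times nearer to 0. CSHL1, LPL, ENSBTAG00000000507 and ENSBTAG00000004322 stayed within 1.5 times, and PRL was larger. Over all genes tested, 626 had an unadjusted limma p-value below 0.05 in this fit, against 1021 in the group comparison.

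**Figure D4:**
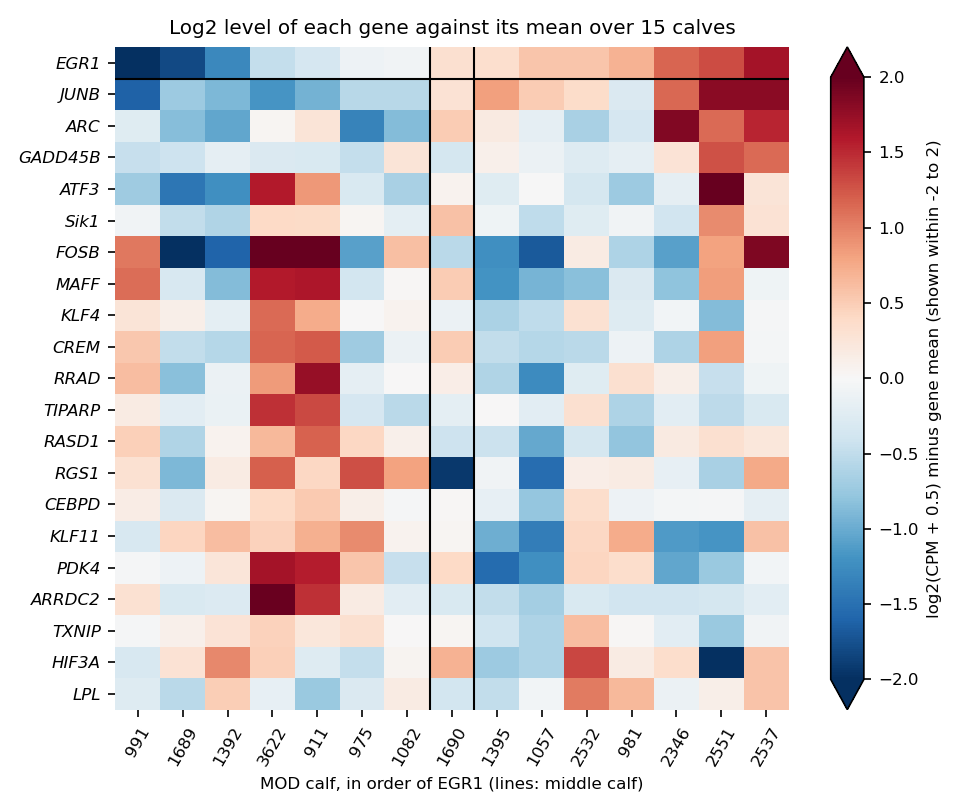
Log2(CPM + 0.5) of EGR1 and 20 genes in each of the 15 MOD calves, as the difference from the gene's mean over the calves (colour scale cut at -2 and 2), with calves in the order of EGR1 and the middle calf between the vertical lines. JUNB is below its mean in all EGR1-low calves and in EGR1-high calf 981 and above it in the others, while FOSB, MAFF, CREM, TIPARP, PDK4 and ARRDC2 are highest in calves 3622 and 911.

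Genes that respond to glucocorticoids and fasting were compared as a further list. Of the 7 members, which include CEBPD and RASD1 from the lists above, 1 was above 0 and 6 below, with a median log2 difference of -0.39. At an unadjusted p-value below 0.05, 4 were lower and 0 higher (57.1% of the list, against 6.80% of all genes tested), and after adjustment 0 passed. Without calves 3622 and 911, 1 of the 7 (ARRDC2) was lower at that level (14.3%, against 3.99% of all genes tested).

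PDK4 (ENSBTAG00000014069), the kinase that switches off pyruvate dehydrogenase in fasting, ran from 61.1 to 268 CPM (median 99.96) in EGR1-low and from 28.8 to 114 CPM (median 50.0) in EGR1-high calves. The 268 and 252 CPM of calves 3622 and 911 were the highest, and EGR1-high calves 1395, 1057, 2346 and 2551 (28.8 to 50.0 CPM) were below every EGR1-low calf. PDK4 differed by -1.04 (standard error 0.40, 95% interval -1.90 to -0.17, limma adjusted p = 0.633) and -0.59 without calves 3622 and 911.

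ARRDC2, an alpha-arrestin induced by glucocorticoids, ran from 7.16 to 37.1 CPM (median 10.2) in EGR1-low and from 5.46 to 7.71 CPM (median 6.79) in EGR1-high calves. All 7 EGR1-high calves lay below the EGR1-low median and within a narrow range, and the width of the EGR1-low range came from calves 3622 and 911 (37.1 and 25.7 CPM). The log2 difference was -0.84 (standard error 0.31, limma adjusted p = 0.617) and -0.33 without those calves (standard error 0.14).

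TXNIP, an inhibitor of thioredoxin that limits glucose uptake, had medians of 354 CPM in EGR1-high and 480 CPM in EGR1-low calves. It ran from 245 to 629 CPM in EGR1-high and from 405 to 565 CPM in EGR1-low calves. The lowest values were those of EGR1-high calves 1395, 1057, 2346 and 2551 (245 to 354 CPM), and the highest that of EGR1-high calf 2532. EGR1-high calf 2537 (394 CPM) was also below every EGR1-low calf. The TXNIP difference of -0.39 (standard error 0.16, limma adjusted p = 0.645) depended less on calves 3622 and 911, at -0.34 without them. With continuous EGR1, PDK4 was at -0.42, ARRDC2 at -0.36 and TXNIP at -0.22. HIF3A, a hypoxia-inducible factor subunit, differed by -0.31 (standard error 0.47) and by 0.08 without calf 2551, which at 4.65 CPM was the lowest of all. LPL, lipoprotein lipase, was the 1 member above 0 (0.44, standard error 0.23, limma adjusted p = 0.773).

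**Figure D5:**
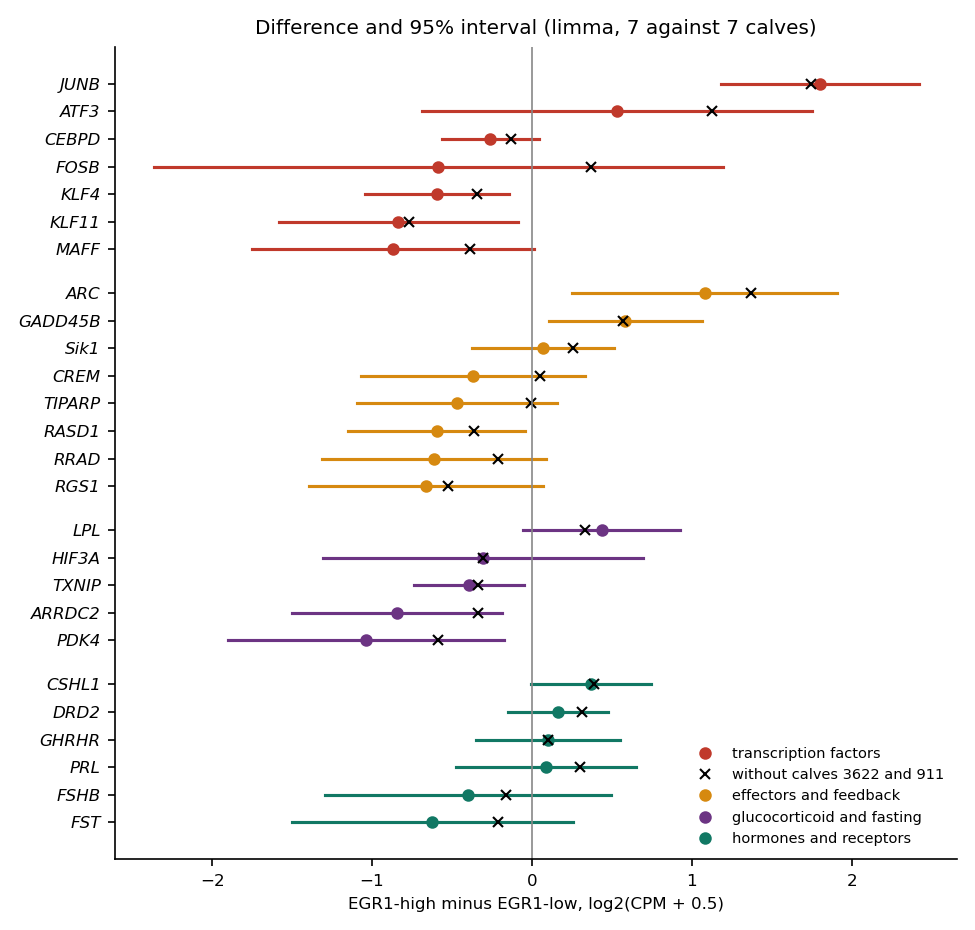
EGR1-high minus EGR1-low difference on log2(CPM + 0.5) for induced, glucocorticoid and fasting, and hormone genes (points, limma, 7 against 7 calves) with 95% intervals (lines, coloured by list), and the difference without calves 3622 and 911 (crosses, 7 against 5). Among the genes drawn, JUNB lies furthest from 0 at 1.80 and keeps its place without those calves, whereas FOSB and CREM cross 0 and PDK4 and ARRDC2 move towards it.

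The pituitary hormone list showed no called difference. Of its 12 members, 9 were above 0 and 3 below, with a median log2 difference of 0.10 and a range of -0.62 to 0.53. The median was 0.27 without calves 3622 and 911. At an unadjusted p-value below 0.05 only DIO3, which inactivates thyroid hormone, was higher (0.53, standard error 0.25, limma adjusted p = 0.734), which is 8.33% of the list against 6.80% of all genes tested, and after adjustment 0 passed. Without calves 3622 and 911, DIO3 left that level (0.40, limma unadjusted p = 0.149). DRD2 was then the only member at it (0.31, limma unadjusted p = 0.0444), which is 8.33% of the list against 3.99% of all genes tested. All of PRL, DRD2, CSHL1, GHRHR and FSHB were detected in every calf.

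FSHB (ENSBTAG00000010889), a gonadotroph hormone gene, ran from 987 to 2566 CPM (median 1532) in EGR1-low and from 347 to 3289 CPM (median 1354) in EGR1-high calves. The EGR1-high calves enclosed the EGR1-low range on both sides, with the lowest value in calf 2551 and the highest in calf 2537, which had the most EGR1 of all. The log2 difference was -0.40 (standard error 0.42, 95% interval -1.30 to 0.50, limma adjusted p = 0.880). It was -0.16 without calves 3622 and 911, and with single calves left out it ran from -0.63 (without calf 2537) to -0.093 (without calf 2551). The interval spans both directions, so the 7 calves per group do not show that FSHB was equal. FST, which encodes the activin-binding protein follistatin, differed by -0.62 (standard error 0.41, limma adjusted p = 0.809) and by -0.21 without calves 3622 and 911, which held its 2 highest values.

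PRL, made by lactotrophs, ran from 32023 to 114791 CPM (median 77510) in EGR1-low and from 44034 to 145610 CPM (median 70053) in EGR1-high calves. The log2 difference was 0.09 (standard error 0.27, 95% interval -0.47 to 0.65, limma adjusted p = 0.965), and its sign turned without calf 2551 (-0.06) or calf 1392 (-0.11). Without calves 3622 and 911 it was 0.30. DRD2, the receptor through which dopamine restrains lactotrophs, differed by 0.17 (standard error 0.15, 95% interval -0.15 to 0.48) and by 0.31 without those calves, and with single calves left out it ran from 0.089 (without calf 975) to 0.25 (without calf 3622).

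The somatotroph genes showed no called difference. CSHL1 ran from 92405 to 145261 CPM (median 110229) in EGR1-low and from 96816 to 274951 CPM (median 140396) in EGR1-high calves, a log2 difference of 0.37 (standard error 0.18, 95% interval -0.01 to 0.74, limma adjusted p = 0.742). The highest value was that of calf 2551, without which the difference was 0.22. Reads shared with similar genes of the growth hormone family could not be separated here. GHRHR, which lets somatotrophs respond to hypothalamic growth hormone-releasing hormone, differed by 0.10 (standard error 0.21, 95% interval -0.35 to 0.55) and by -0.04 without calf 2532, which had the highest value (757 CPM).

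The genes of calcium, Gq and protein kinase C signalling, the route from the GnRH receptor to EGR1, were counted next. Of these 8 members, which include the calcium channel subunits CACNA1E and CACNA1I, the G protein GNA15 and the kinase PRKCB, 3 were above 0 and 5 below. The median log2 difference was -0.04, the range was -0.22 to 0.51, and 0 had an unadjusted p-value below 0.05, against 6.80% of all genes tested, a share at which a list this short may hold none. Of 8 neuronal peptide, receptor and synaptic genes, 6 were above 0 and 2 below (median 0.08), and 0 passed at that level.

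Across all 158 symbols of the study's list other than EGR1, 81 differences were above 0 and 77 below, with a median of 0.01. At an unadjusted p-value below 0.05 there were 24 (15.2%, against 6.80% of all genes tested), 11 of them higher and 13 lower in EGR1-high calves. The study chose these genes on a diet difference that included the same MOD calves, so this share is not independent of how the list was made.

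Genes outside the lists are named here after their values were seen, because no gene was called. The identifier ENSBTAG00000000507 had the second smallest p-value of all genes tested and ran from 14.8 to 74.1 CPM (median 29.6) in EGR1-low and from 63.9 to 528 CPM (median 180.0) in EGR1-high calves. Only EGR1-high calf 981 (63.9 CPM) and EGR1-low calf 1082 (74.1 CPM) overlapped. The log2 difference was 2.78 (standard error 0.47, limma adjusted p = 0.318), and the gene was called in the same 4 settings as JUNB. ENSBTAG00000004322 differed by 2.93 (standard error 0.56, limma adjusted p = 0.386), and it passed the threshold in DESeq2 and with continuous EGR1. In the other direction, ENSBTAG00000015520 ran from 0.281 to 3.12 CPM in EGR1-high and from 1.72 to 3.67 CPM in EGR1-low calves (-1.23, standard error 0.27, limma adjusted p = 0.479), with calf 981 the only EGR1-high calf inside the EGR1-low range. It was at -0.73 with continuous EGR1.

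Among genes with a symbol, the lowest differences were those of CES4A and SOST. CES4A, a carboxylesterase, ran from 1.69 to 8.69 CPM (median 4.50) in EGR1-low and from 0.576 to 3.30 CPM (median 1.08) in EGR1-high calves. All 7 EGR1-high calves were below the EGR1-low median, for a log2 difference of -1.35 (standard error 0.35, limma adjusted p = 0.546). SOST, which encodes the Wnt inhibitor sclerostin, had medians of 6.51 CPM in EGR1-high and 14.9 CPM in EGR1-low calves (-1.32, standard error 0.42, limma adjusted p = 0.600). EGR1-high calves 1395, 1057, 2346 and 2551 held the lowest values of CES4A (0.576 to 1.08 CPM) and of SOST (2.25 to 6.51 CPM), as they did of KLF11, PDK4 and TXNIP. The other EGR1-high calves lay within the EGR1-low range for both genes. With continuous EGR1 the differences were smaller, at -0.72 for CES4A and -0.37 for SOST.

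Markers of other cell types were compared over whole lists. The summed level of the 4 leukocyte markers was 23.1 to 69.9 CPM (median 47.2) in EGR1-high and 18.7 to 65.4 CPM (median 45.6) in EGR1-low calves. For the 4 muscle markers it was 43.0 to 79.3 CPM (median 57.3) and 31.5 to 104 CPM (median 77.4), and for the pair of lymphatic and oligodendrocyte markers 3.66 to 9.17 CPM (median 4.42) and 2.76 to 5.64 CPM (median 4.42). No marker was at 0 in any calf. Each sum was set mostly by its most expressed gene. These were CX3CR1 (mean 39.9 CPM in EGR1-high and 33.4 CPM in EGR1-low calves), ACTA2 (44.5 and 64.3 CPM) and MMRN1 (3.91 and 3.46 CPM). A sum can therefore hide its other members, such as the oligodendrocyte marker OMG (1.38 and 0.717 CPM). The groups overlapped in every list, and the part of these cells in the differences above was not tested.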

How the data were processed

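Diet and calf number were taken from the sample labels. Per the submitters' processing notes, reads were checked with FastQC 0.11.8, trimmed with cutadapt 2.6, aligned to ARS-UCD1.2 with STAR 2.6.1 and handled in R 3.4 with edgeR 3.5. The study's methods give other versions. The table the authors deposited holds a normalized signal, CPM on TMM-adjusted library sizes, and not raw counts. Division by the worth of 1 read gave whole reads (within 0.01) for 100% of positive values.

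The 15 MOD columns were ranked by EGR1, and 7 calves were compared with 7. Genes with at least 10 reads, scaled by depth as in filterByExpr, in 7 of the 14 calves were kept, whichever calves these were, and 15025 of 27607 were tested. The test was limma 3.58.1 (R 4.3.3) on log2(CPM + 0.5) with trended, robust empirical Bayes moderation and no covariate. A call needed both an adjusted p-value under 0.05 and a fold change over 1.5. Differences on this scale understate the change of genes with low values. Alternatives were edgeR 4.0.16 and DESeq2 1.42.0 on the recovered reads, another pseudocount, other filters, RLE factors, library totals without PRL and CSHL1, EGR1 as a continuous variable over the 15 MOD calves, reads per library as a covariate, and each calf left out. The test was checked on simulated data. Single measures were compared by 2-sided exact permutation.

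The rule for named genes took all members of the first 2 lists, 5 hormone genes and any called genes. No gene was called, and the other genes named were chosen after their values were seen. The EGR1 groups and all gene lists were chosen with earlier results of these data known. Low values are limited by counting error, and 3 reads correspond to 0.160 to 0.249 CPM. Coordinates and sequences are not given.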

Additional observations from a re-analysis of the deposited data

Results flagged for a closer look

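In each group of 7 calves, the highest and the lowest value were compared with the rest by Dixon's ratio of the gap to the range (critical value 0.568). The ratio was taken on log2(CPM + 0.5) for genes and on the percentage itself for the share of reads, so ratios of the CPM values printed here differ from it. Of 78 groups examined 5 passed, where about 3.9 would pass by chance. EGR1-high calf 2551 had 36.1 CPM of ATF3 (ratio 0.744), 50.0 CPM of CREM (ratio 0.598) and 33.9% of its reads on PRL and CSHL1 (ratio 0.715), each the highest of its group. EGR1-low calf 1082, which had the most EGR1 of its group, had the highest GADD45B value of that group at 19.9 CPM (ratio 0.589). EGR1-low calf 1392 had the lowest PRL value of its group at 32023 CPM (ratio 0.600).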

How the results depend on the processing

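The number of genes called higher in EGR1-high calves was 0 in the main comparison, 9 with DESeq2, 5 with continuous EGR1 (all 5 among the 9) and 2 with reads per library as a covariate. It ran from 0 to 3 with each calf left out, and the number called lower from 0 to 1. All of these leave-one-out calls came without calf 981. The cause was not tested. With edgeR, log2(CPM + 2), no filter (21410 genes), a mean of at least 1 CPM (14378 genes), RLE factors, totals without PRL and CSHL1, or no fold threshold, 0 genes were called in either direction. In all, 10 genes were called by some other setting. FOSB turned to 0.20 with continuous EGR1 and, without calves 3622 and 911, to 0.37, where CREM turned to 0.053. With each calf left out, the log2 difference ran from -0.090 to 0.15 for Sik1, -0.11 to 0.23 for PRL, -0.041 to 0.25 for GHRHR and -0.56 to 0.076 for HIF3A. The difference in reads ran from -21811 to 875763, in genes with a read from -71.7 to 44.8, and in the share of reads on PRL and CSHL1 from 1.40 to 3.80 percentage points (exact permutation p from 0.0315 to 0.204). With 7 calves per group and a standard error of 0.12 for the median gene, small differences were not detectable, and genes with 95% intervals across 0 are not shown to be equal. No paired analysis was possible because the calves carry unique numbers that no groups share.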

Other observations

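Of the 29 members of the remaining 6 lists, 4 had an unadjusted p-value below 0.05 (13.8%, against 6.80% of all genes tested), and 0 passed after adjustment with limma. Without calves 3622 and 911, only the markers LMOD1 and OMG of these members were at that level, beside 3.99% of all genes tested. Of the 4 cell division genes, 3 were below 0, and AURKB, a mitotic kinase, differed by -0.44 (standard error 0.21, limma adjusted p = 0.733). Of the 4 retinoid genes 2 were above and 2 below 0. ALDH1A3, which makes retinoic acid, ran from 0.173 to 1.65 CPM in EGR1-high and from 0.597 to 11.4 CPM in EGR1-low calves (-1.02, standard error 0.46, limma adjusted p = 0.719), and calves 3622 and 911 held its 2 highest values. Without them it differed by -0.41. Of the 11 matrix and adhesion genes 7 were above and 4 below 0 (5 above without calves 3622 and 911), with 0 at that level. VCAN, the proteoglycan versican, had medians of 67.3 CPM in EGR1-high and 144 CPM in EGR1-low calves and differed by -0.59 (standard error 0.37, limma adjusted p = 0.799).

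Among the marker genes, OMG of oligodendrocytes (0.69, standard error 0.23, limma adjusted p = 0.600) and LMOD1 of smooth muscle (0.59, standard error 0.28, limma adjusted p = 0.733) were higher in value in EGR1-high calves. All 7 EGR1-high calves were above the EGR1-low median for OMG and 6 of 7 for LMOD1. OMG was low throughout, at 0.747 to 1.86 CPM in EGR1-high and 0.120 to 1.28 CPM in EGR1-low calves. Its value in calf 911 (0.120 CPM) lay below the 0.179 CPM that 3 reads were worth in that calf. The 4 muscle markers were divided, with 2 above and 2 below 0. ACTA2, smooth muscle actin, differed by -0.46 (standard error 0.30, limma adjusted p = 0.809) and by -0.23 without calves 3622 and 911. The 4 leukocyte markers had 3 differences above 0 and 1 below (1 above without calves 3622 and 911), with 0 at an unadjusted p-value below 0.05. ZNF215, a zinc finger gene named after its values were seen, had medians of 1.13 CPM in EGR1-high and 0.524 CPM in EGR1-low calves and differed by 0.75 (standard error 0.21, limma adjusted p = 0.577). With continuous EGR1, ZNF215 was at 0.38 and OMG at 0.44.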
